A study of Homo sapiens with 4 samples.

Results

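In T24 bladder cancer cells that overexpressed CBX7, 43 genes were lower in both libraries than in either control library by at least 1.5-fold. They were taken from 13209 genes with a summed count of at least 100 over the 4 libraries, so they made up 0.326% of that set. The deposited table lists 60623 genes in all. A gene entered the set when its larger CBX7 value was at most its smaller control value divided by 1.5, with each value expressed as CPM, the count scaled to the library's summed count. The same comparison therefore chose the genes, and their lower values in the CBX7 libraries are a description without a test. The mirror rule, which asks for 1.5-fold higher values in both CBX7 libraries, was met by 176 genes (1.33%).

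T24 is an established line from a human bladder (urothelial) carcinoma. The study compared cells labelled control with cells labelled CBX7, 2 RNA-seq libraries each, grown in RPMI medium with fetal calf serum. Per the study's methods, full-length CBX7 was cloned with a FLAG tag into a pCDH expression vector and stable lines were made. Neither the labels nor the methods say whether a line was 1 clone, what the control cells carried, or whether the libraries of a group came from separate cultures, so the spread between libraries may be technical.

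CBX7 is a chromobox protein of Polycomb repressive complex 1. Its chromodomain reads the trimethyl mark that Polycomb repressive complex 2 places on lysine 27 of histone H3, and the complex keeps silenced genes compact, most often at CpG-rich promoters. Genes whose transcripts are lower when CBX7 is abundant are candidates for such repression, but RNA levels alone do not separate direct targets from later changes. In RNA pooled from a whole culture, fewer transcripts per cell and fewer cells carrying the transcript also cannot be told apart.

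The libraries held summed counts of 20800910 to 25135488. CBX7 itself stood at 11.1 and 9.77 CPM in the control libraries and at 1705 and 1623 CPM in the CBX7 libraries, as labelled. AKR1B10, the enzyme gene followed in the study, had 2 counts in control replicate 1 and 0 in the other 3 libraries and could not be described at this depth. Of the epithelial and urothelial markers, the keratins KRT7, KRT8 and KRT18 were abundant, between 966 and 1692 CPM, while KRT5, KRT20, TP63, CDH1 and the 4 uroplakins UPK1A, UPK1B, UPK2 and UPK3A were at 0 or within 0.137 CPM. GATA3 had 0.127 and 0.192 CPM in control and 0.557 and 1.002 CPM in CBX7 cells, and ELF3 stood at 9.23 and 9.07 CPM in control and 6.72 and 6.88 CPM in CBX7 cells. Of 11 markers of blood, vessel, liver and muscle cells, 10 were under 1 CPM in every library. The exception, CD68, stood at 13.1 and 10.5 CPM in control and 8.17 and 7.04 CPM in CBX7 cells, and its part in the results was not tested. CBX7 replicate 1 stood apart from the other libraries in a trend with gene length, which is described with the lengths of the 43 genes.

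The widest gap between the groups was that of SERPINB2, which encodes an inhibitor of plasminogen activators. SERPINB2 (ENSG00000197632, chr18:63871692-63903890, GRCh38) stood at 4.99 and 4.52 CPM in the control libraries and at 1.03 and 1.23 CPM in the CBX7 libraries. Its nearest libraries lay 3.68-fold apart, and its log2 fold change was -2.04 (standard error 0.25). SERPINE2 (ENSG00000135919, chr2:223975112-224039319), a secreted inhibitor of thrombin and urokinase, had 19.6 and 17.6 CPM in control and 7.35 and 8.74 CPM in CBX7 cells, a log2 fold change of -1.18 (standard error 0.16). In both serpins the libraries of a group differed by less than the gap between the groups, a gap that the rule itself required to be at least 1.5-fold. They were 2 of the 11 serpins with a summed count of at least 100, where the rule took 0.326% of all genes. SERPINB5, another serpin, was on the other side, with 8.38 and 7.93 CPM in control and 10.5 and 14.3 CPM in CBX7 cells.

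**Figure D1:**
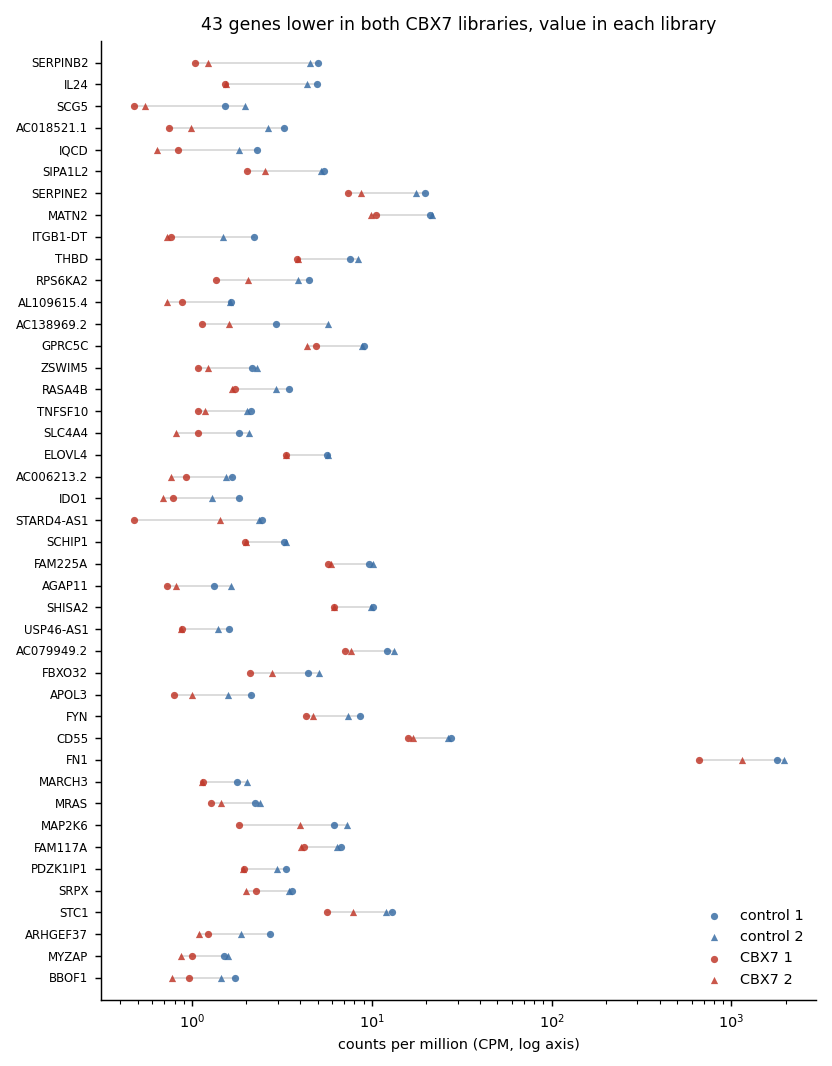
CPM (log axis) of each of the 43 genes in the 2 control libraries (blue) and the 2 CBX7 libraries (red), ordered from the widest to the narrowest gap between the groups. Most genes lie under 10 CPM, FN1 stands alone above 600 CPM, and the red points of STARD4-AS1, FN1 and MAP2K6 lie far apart.

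The promoters of these genes did not share 1 composition, which the sequences of 4 of them show. The 250 bases before the RefSeq start (GRCh38.p14) are given 5′ to 3′ for the 2 genes whose nearest libraries lay farthest apart, for the other serpin and for the most abundant gene, with each CpG dinucleotide in capitals.
SERPINB2 (chr18:63887455-63887704, plus strand): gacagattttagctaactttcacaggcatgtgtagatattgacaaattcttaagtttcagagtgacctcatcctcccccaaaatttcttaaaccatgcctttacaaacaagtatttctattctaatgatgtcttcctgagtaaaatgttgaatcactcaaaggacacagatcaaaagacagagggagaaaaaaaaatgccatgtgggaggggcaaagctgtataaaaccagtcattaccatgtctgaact
IL24 (chr1:206897193-206897442, plus strand): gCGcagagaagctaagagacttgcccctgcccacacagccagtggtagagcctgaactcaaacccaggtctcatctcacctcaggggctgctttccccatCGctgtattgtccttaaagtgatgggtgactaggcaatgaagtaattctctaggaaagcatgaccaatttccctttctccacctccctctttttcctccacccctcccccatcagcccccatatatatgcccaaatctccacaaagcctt
SERPINE2 (chr2:224031479-224031728, minus strand): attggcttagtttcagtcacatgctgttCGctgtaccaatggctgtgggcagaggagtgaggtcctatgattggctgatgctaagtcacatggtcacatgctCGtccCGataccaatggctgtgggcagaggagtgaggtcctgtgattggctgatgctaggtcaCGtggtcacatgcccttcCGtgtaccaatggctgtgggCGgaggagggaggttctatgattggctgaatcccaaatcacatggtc
FN1 (chr2:215436069-215436318, minus strand): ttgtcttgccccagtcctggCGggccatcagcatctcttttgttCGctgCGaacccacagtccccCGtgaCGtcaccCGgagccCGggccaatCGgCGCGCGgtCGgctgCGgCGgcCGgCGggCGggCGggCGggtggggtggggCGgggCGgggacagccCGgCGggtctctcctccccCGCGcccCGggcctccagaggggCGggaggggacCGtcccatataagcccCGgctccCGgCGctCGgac
The SERPINB2 stretch held no CpG, that of IL24 held 2, that of SERPINE2 held 6 and that of FN1 held 32. For SERPINB2 and SERPINE2 the RefSeq start lies well inside the gene coordinates given above, so sequence at the outer start of these genes was not examined. Counted with the 50 bases after the start, the window of SERPINE2 had 7 matches to CCAAT on either strand, and that of FN1 had 6 matches to GGGCGG and 1 to TGACGTCA. The SERPINB2 window had 1 match to TATAAA and 1 to TGANTCA.

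Several genes of the set encode secreted or surface proteins. IL24 (ENSG00000162892, chr1:206897443-206904139), a cytokine related to IL-10, stood at 4.98 and 4.34 CPM in control and at 1.52 and 1.54 CPM in CBX7 cells, and its nearest libraries were 2.81-fold apart. TNFSF10 encodes the death ligand TRAIL, and its values were 2.12 and 2.02 CPM in control against 1.07 and 1.18 CPM in CBX7 cells. THBD encodes thrombomodulin, a thrombin receptor best known from endothelium, and had 7.58 and 8.37 CPM in control and 3.86 and 3.87 CPM in CBX7 cells. In these 3 genes the libraries of a group lay close together, while the separation of the groups was fixed by the rule. TNFSF10 rested on 26 to 50 counts per library. CD55, which protects cells from complement, was one of the more abundant genes with 27.5 and 26.4 CPM in control and 15.9 and 16.9 CPM in CBX7 cells, and it had the smallest standard error of the set (log2 fold change -0.69, standard error 0.13). STC1, a secreted glycoprotein, had 12.9 and 12.0 CPM in control and 5.61 and 7.88 CPM in CBX7 cells. SCG5 encodes a chaperone of the proprotein convertase PC2 in the secretory pathway and is also the shortest gene of the set (659 bases). It stood at 1.52 and 1.97 CPM in control and 0.473 and 0.546 CPM in CBX7 cells, where its lowest count was 11.9 (95% exact Poisson interval 6.20 to 21.0, counting error only).

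Extracellular matrix genes were represented by FN1 and MATN2. FN1 (ENSG00000115414, chr2:215360440-215436172), fibronectin, stood at 1788 and 1958 CPM in control replicates 1 and 2 and at 662 and 1151 CPM in CBX7 replicates 1 and 2. Its mean was 1873 ± 120.1 CPM in control and 907 ± 346 CPM in CBX7 cells (SD, n = 2), so the 2 CBX7 libraries differed from each other by a ratio of 0.575 while both lay below the control libraries. It was the most abundant gene of the set, and after it only CD55 and MATN2 exceeded 20 CPM in control cells. MATN2, an adaptor protein of matrix filaments, had 21.0 and 21.5 CPM in control and 10.5 and 9.93 CPM in CBX7 cells, and here the libraries of each group nearly coincided. Of 12 measured genes of epithelial-mesenchymal transition, FN1 was the only one in the set. CDH2 (N-cadherin) had 150.5 and 161 CPM in control and 112 and 149.9 CPM in CBX7 cells, and VIM (vimentin) had 3550 and 3360.5 CPM in control and 3204 and 2727 CPM in CBX7 cells. Both CBX7 libraries lay below both control libraries in 6 of the 12 genes, FN1, CDH2 (narrowly) and VIM included, beside 16% of all 13209 genes. Of the 6 only FN1 met the rule. The groups overlapped in others of the 12, such as ZEB1, ZEB2 and SPARC. SNAI1, outside the 12 with a summed count of 60, went the other way, with 0.466 and 0.144 CPM in control and 0.955 and 1.002 CPM in CBX7 cells. Among epithelial markers, KRT19 had 6.60 and 5.77 CPM in control and 17.7 and 13.0 CPM in CBX7 cells and met the mirror rule, the only one of the 8 measured to do so.

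Others encode signalling proteins inside the cell. SIPA1L2, a GTPase-activating protein for RAP, stood at 5.42 and 5.24 CPM in control and at 2.03 and 2.55 CPM in CBX7 cells. RPS6KA2, a ribosomal S6 kinase that acts downstream of ERK, had 4.49 and 3.89 CPM in control and 1.35 and 2.05 CPM in CBX7 cells. MAP2K6, the kinase that activates p38, had 6.14 and 7.31 CPM in control and 1.83 and 4.01 CPM in CBX7 cells. For RPS6KA2 and MAP2K6, CBX7 replicate 1 was clearly the lower of the 2 CBX7 libraries. FYN, a SRC-family tyrosine kinase, had 8.59 and 7.40 CPM in control and 4.30 and 4.74 CPM in CBX7 cells. MRAS, a small GTPase related to RAS, had 2.24 and 2.40 CPM in control and 1.27 and 1.46 CPM in CBX7 cells. ARHGEF37, a guanine nucleotide exchange factor by name, was less even in control cells, with 2.71 and 1.87 CPM there and 1.23 and 1.09 CPM in CBX7 cells. Of 211 measured small GTPases and regulators matched by symbol, SIPA1L2, RASA4B and ARHGEF37 were in the set (1.42%, beside 0.326% of all genes). The symbol pattern missed MRAS, so this is not a full count of the family. RASA4B overlapped between the groups when summed with its copy RASA4, and ARHGEF37 did not meet the rule after the length and GC correction. None of 19 ERK output genes was in the set, but at a share of 0.326% a list of 19 would seldom hold a member, so nothing is read from this zero.

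The remaining protein-coding genes had varied roles and mostly low levels. GPRC5C, an orphan G-protein-coupled receptor, stood at 9.02 and 8.80 CPM in control and at 4.89 and 4.37 CPM in CBX7 cells. ELOVL4, which elongates very long-chain fatty acids, had 5.63 and 5.67 CPM in control and 3.34 and 3.32 CPM in CBX7 cells, the closest agreement within both groups among the genes named. SHISA2, which retains WNT and FGF receptors in the endoplasmic reticulum, had 10.1 and 9.95 CPM in control and 6.13 and 6.19 CPM in CBX7 cells. IDO1, the enzyme that opens the tryptophan ring, was near the lower limit of the set with 1.82 and 1.30 CPM in control and 0.781 and 0.685 CPM in CBX7 cells. SLC4A4, a sodium bicarbonate cotransporter, had 1.82 and 2.07 CPM in control and 1.07 and 0.820 CPM in CBX7 cells. FBXO32, the F-box protein atrogin-1, had 4.40 and 5.10 CPM in control and 2.11 and 2.78 CPM in CBX7 cells. IQCD, a gene of the ciliary dynein regulatory complex, had 2.29 and 1.83 CPM in control and 0.835 and 0.637 CPM in CBX7 cells. The others were ZSWIM5, APOL3, the ubiquitin ligase MARCH3, FAM117A, PDZK1IP1, SRPX, SCHIP1, RASA4B, MYZAP and BBOF1, all under 7 CPM in the control libraries. MARCH3 was 1 of 14 genes deposited under a calendar date in place of a symbol, and was recognised by its Ensembl identifier.

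The 43 genes comprised 33 protein-coding genes (76.7%, beside 89.1% of the 13209 genes), 5 long intergenic noncoding RNAs (11.6% beside 2.55%), 2 processed transcripts, 1 antisense RNA, 1 unprocessed pseudogene and AL109615.4, which GENCODE 29 does not list. AC018521.1, a processed transcript, had the widest gap of the 10 without a coding annotation, with 3.24 and 2.66 CPM in control and 0.750 and 0.987 CPM in CBX7 cells. The intergenic RNAs AC079949.2 and FAM225A were the most abundant of them. AC079949.2 had 12.1 and 13.3 CPM in control and 7.12 and 7.65 CPM in CBX7 cells. STARD4-AS1 had 2.44 and 2.35 CPM in control and 0.477 and 1.43 CPM in CBX7 cells, and the ratio of its CBX7 libraries, 0.334, was the most uneven of the set. The pseudogene AC138969.2 was the least even among control libraries, with 2.95 and 5.68 CPM there and 1.14 and 1.62 CPM in CBX7 cells. AGAP11, AC006213.2, USP46-AS1 and AL109615.4 were faint in both groups, between 1.32 and 1.66 CPM in control and between 0.725 and 0.931 CPM in CBX7 cells.

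Several of these values are uncertain because reads can be shared with another gene. The counts of 10 genes were not whole in any of the 4 libraries (IL24, AC018521.1, AC138969.2, RASA4B, AC006213.2, IDO1, SCHIP1, FAM225A, AGAP11 and MYZAP), a share of 23.3% beside 26.0% of all 13209 genes. When a gene was summed with its copy or read-through gene, a step chosen after seeing the data, none of 4 pairs met the rule. The nearest libraries were 1.26-fold apart for FAM225A with FAM225B, 1.07-fold for SCHIP1 with IQCJ-SCHIP1 and 1.09-fold for MYZAP with GCOM1. IQCJ-SCHIP1 had 32.5 and 33.0 CPM in control and 31.6 and 29.7 CPM in CBX7 cells, against 3.26 and 3.33 CPM for SCHIP1 in control. That sum therefore follows IQCJ-SCHIP1 and says little about SCHIP1. For RASA4B with its near-identical copy RASA4, the groups overlapped: the sums were 8.04 and 10.6 CPM in control and 8.49 and 8.27 CPM in CBX7 cells.

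Of the 42 genes with coordinates, 10 overlapped another measured gene and 7 overlapped one on the opposite strand. The sources used here do not say that strand was used in counting, and without it reads of such partners cannot be told apart. ITGB1-DT had 2.20 and 1.49 CPM in control and 0.760 and 0.729 CPM in CBX7 cells, and its overlapping partner ITGB1 was itself lower, with 1189 and 1204 CPM in control and 823 and 1068 CPM in CBX7 cells. STARD4, opposite STARD4-AS1, overlapped between the groups at 28.4 and 29.4 CPM in control and 22.7 and 33.5 CPM in CBX7 cells. MATN2 shares its locus with RPL30, a ribosomal protein gene with 858 and 821 CPM in control and 1131 and 776 CPM in CBX7 cells.

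The deposited gene ontology terms placed many of the genes outside the cell or at its surface. This grouping was chosen after seeing the genes. Of 38 genes with a term, 15 (39.5%) carried an extracellular one, beside 17.0% of the 12486 annotated genes, among them SERPINB2, SERPINE2, IL24, MATN2, THBD, CD55, FN1 and STC1. The 15 also held genes of membrane proteins such as SLC4A4 and GPRC5C, so the term is broader than secretion. A plasma membrane term was held by 12 (31.6% beside 19.9%) and a nuclear term by 9 (23.7% beside 46.1%). The terms are not limited to proteins: the 38 included noncoding genes such as ITGB1-DT. The pseudogene AC138969.2 carried an extracellular, a plasma membrane and a nuclear term and is counted under each. Of the symbol lists, 2 of 34 cytokine, chemokine and related receptor genes (IL24 and TNFSF10) were in the set, where the rule took 0.326% of all genes, and 13 of the 34 had both CBX7 libraries below both control libraries, beside 16% of all genes. Beside the same 0.326%, solute carriers gave 1 of 210 (0.476%, SLC4A4), lipid enzymes and binding genes 2 of 85 (2.35%, ELOVL4 and APOL3), and G-protein-coupled receptors 1 of 73 (1.37%, GPRC5C). The ubiquitin ligase families gave FBXO32, MARCH3 and, through its symbol alone, the noncoding USP46-AS1 among 304. Likewise IDO1 and ITGB1-DT matched the patterns for developmental transcription factors and for integrins by symbol alone and belong to neither. No gene of the set was among 20 measured subunits of Polycomb repressive complex 1, 12 of complex 2, 8 inhibitors of cyclin-dependent kinases, 38 cell-cycle genes, 29 HOX genes, 39 interferon-stimulated genes or 14 genes the study followed in its assays. At a share of 0.326% lists of this size would seldom hold a member, so nothing is read from these zeros.

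The 43 genes had low levels. Their median was 3.29 CPM in control cells, beside 28.9 CPM over all 13209 genes, and 28 of them (65.1%) were under 5 CPM, beside 18.0%. Per length, in TPM (the transcript share scaled by gene length), the medians were 2.57 and 15.8. Only FN1, CD55 and SERPINE2 exceeded 10 TPM in control cells, with means of 547.6, 19.2 and 12.6 TPM. At such levels counting error is large, and the lowest count of a gene in any library had a median of 33.9. The minimum of 100 counts also shaped the set: with a summed count of at least 400, 14 genes met the rule, and with at least 20, 173 did.

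The same-numbered libraries gave similar sizes of difference. The median log2 ratio of the 43 genes was -0.999 for CBX7 replicate 1 over control replicate 1 (range -2.36 to -0.60) and -0.87 for replicate 2 (range -1.88 to -0.61). The medians were -0.07 over all 13209 genes in replicate 1 and 0.01 over the 13206 genes with a ratio in replicate 2. Replicate 1 gave the lower ratio for 25 of the 43 genes (58.1%), beside 58.7% of all genes. Across the 43 genes, which were chosen on these ratios, the ratios of the pairs had a Spearman correlation of 0.42 and a Pearson correlation of 0.50, beside a Spearman correlation of 0.20 over all genes tested, given as a description of genes that share the same 4 libraries.

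**Figure D2:**
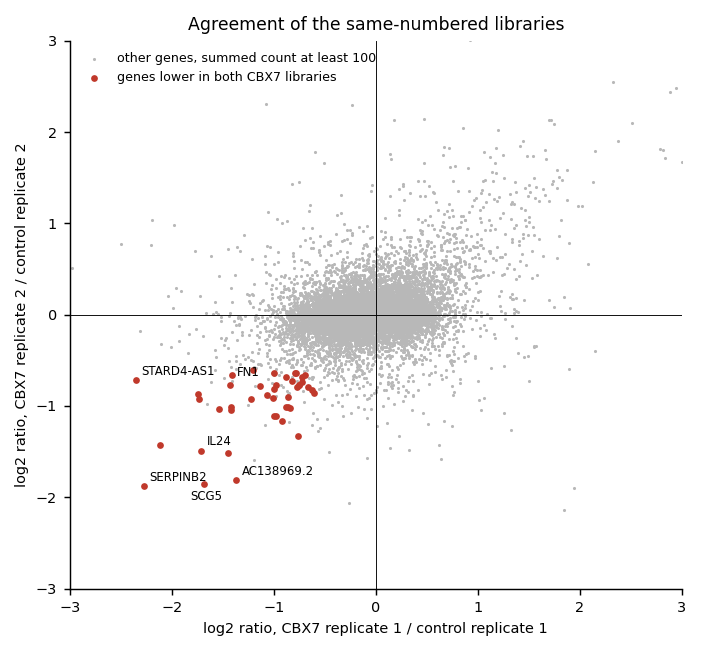
Log2 ratio of CPM in CBX7 over control replicate 1 (horizontal axis) and over control replicate 2 (vertical axis) for genes counted in every library, with the 43 genes in red and the few genes beyond 3 log2 units not shown. The red points lie in the lower left corner that the rule fixes, from -2.36 to -0.60 on the horizontal and from -1.88 to -0.61 on the vertical axis.

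Gene length moved with replicate 1 in the whole table. The Spearman correlation of the log2 ratio with deposited gene length was -0.55 over 13209 genes in replicate 1 and 0.04 over 13206 genes in replicate 2, a description across genes of single library pairs. The median ratio of replicate 1 went from 0.32 in genes up to 1000 bases to -0.41 in genes over 6000 bases. Within the 43 genes the correlations with length were -0.10 and -0.07, but the rule cut both ratios off at the top, so these values do not show whether the set follows the trend. From the shortest to the longest of 5 length classes, their replicate 1 ratio had medians of -1.23, -1.10, -0.86, -1.004 and -1.37, with no steady order. Their median length was 2931 bases, beside 2963 bases over all genes. They were 2 of 1093 genes up to 1000 bases, 10 of 2722 up to 2000, 16 of 4975 up to 4000, 8 of 2493 up to 6000 and 7 of 1926 above. The longest was MAP2K6 (13405 bases), followed by AC138969.2 (9932), FN1 (8804), SLC4A4 (7596) and FBXO32 (6744). The shortest after SCG5 were PDZK1IP1 (838), USP46-AS1 (1048), IL24 (1320) and IQCD (1670).

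With the trends of length and GC content taken out of every library, 38 of the 43 genes still met the rule. FN1 then had 1782 and 1734 CPM in control and 848 and 1024 CPM in CBX7 cells, so its CBX7 libraries lay closer together and its nearest libraries were 1.69-fold apart. MAP2K6 went to 6.17 CPM in each control library and 2.71 and 3.33 CPM in CBX7 cells. The 5 genes that no longer met it were AL109615.4, ARHGEF37, BBOF1, MARCH3 and SLC4A4. On the deposited TPM, 11 of the 43 genes did not meet the rule (AC006213.2, ARHGEF37, IDO1, MARCH3, MRAS, MYZAP, PDZK1IP1, RASA4B, RPS6KA2, SCHIP1 and SLC4A4). MARCH3 overlapped between the groups on that scale, with 0.69 and 1.80 TPM in control and 1.00 and 1.48 TPM in CBX7 cells.

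**Figure D3:**
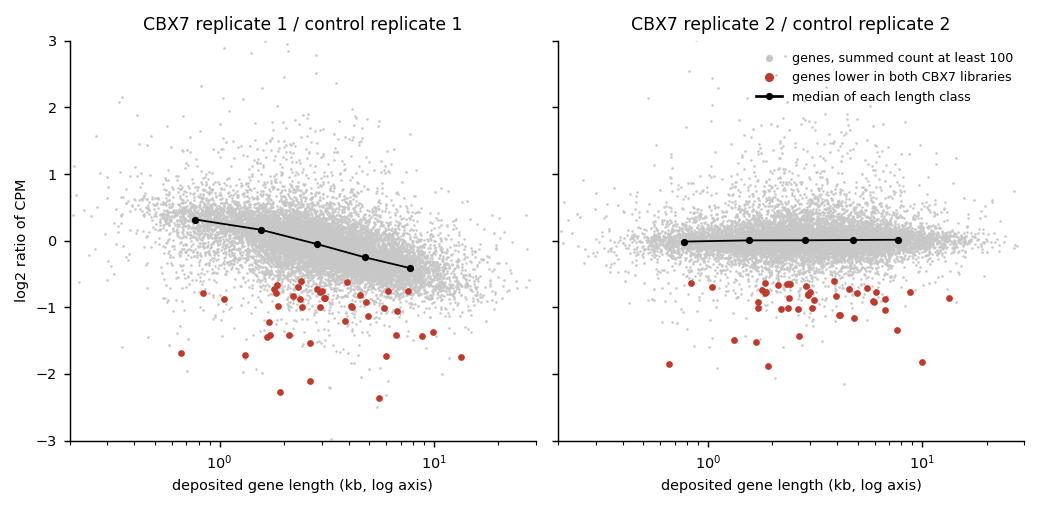
Log2 ratio of CPM, CBX7 over control, against deposited gene length (kb, log axis) for replicate 1 (left) and replicate 2 (right), with all genes in grey, the 43 genes in red and the median of each length class in black. The black line runs from 0.32 to -0.41 on the left and stays within 0.02 of 0 on the right, and the red points, chosen on these ratios, lie at short and long lengths in both panels.

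The genes were scattered over 21 chromosomes. Among the 42 with coordinates, the only pair within 1 Mb was IL24 and CD55 on chromosome 1, 0.417 Mb apart. The nearest measured gene on either side gave 84 neighbours. None of the 84 met the rule, but at a share of 0.326% so few genes would seldom hold a member, so nothing is read from this zero. The log2 fold change of the neighbours was negative in 48, and both CBX7 libraries lay below both control libraries in 17 (20.2%), beside 16% of all genes. The median log2 fold change of the neighbours was -0.06 (range -0.62 to 0.63), beside 0.0029 over the 13208 of these genes in the fit. The neighbours lowest on that scale were LINC02376 beside AC079949.2 (-0.62) and SERPINB7 beside SERPINB2 (-0.60). SERPINB7, another serpin of the cluster on chromosome 18, had 5.97 and 6.15 CPM in control and 3.50 and 4.37 CPM in CBX7 cells. HMSD, on the other side of SERPINB2, overlapped between the groups at 3.80 and 3.62 CPM in control and 4.15 and 3.44 CPM in CBX7 cells.

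**Figure D4:**
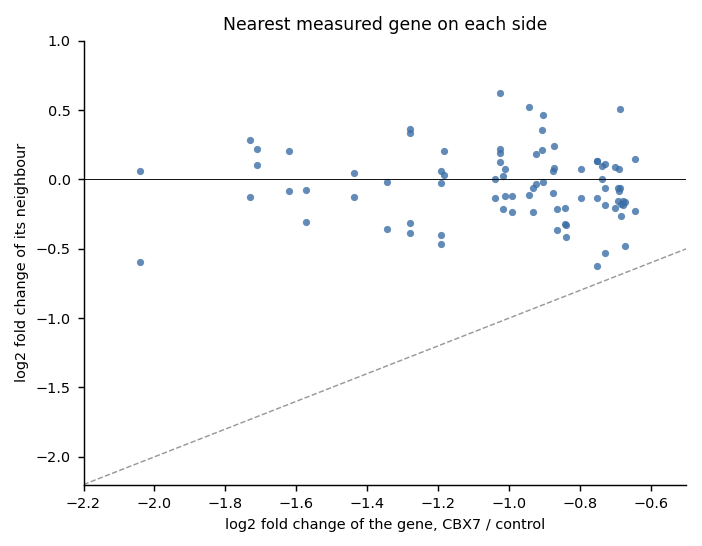
Log2 fold change (CBX7 over control, edgeR fit) of the nearest measured gene on each side (vertical axis) against that of the gene itself (horizontal axis) for 42 of the 43 genes, with equal values on the dashed line. The 84 neighbours lie between -0.62 and 0.63 around 0.

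RefSeq promoter windows, from 250 bases before to 50 after the start, were matched for 28 of the 43 genes and for 10114 of the 13209. The median window of the set held 18.5 CpG dinucleotides, beside 27 over all matched genes. Under 10 CpG were found in 8 windows (28.6% beside 9.65%), those of SERPINB2, SLC4A4, TNFSF10, IL24, FAM225A, SERPINE2, PDZK1IP1 and AGAP11. The windows of SERPINB2 and SERPINE2 lie inside the gene as GENCODE 29 places it, not at its outer start. At least 20 CpG were found in 13 (46.4% beside 73.4%), among them FN1 (38), SIPA1L2 (41), MRAS (44), ZSWIM5 (46) and BBOF1 (51). The set also had a lower median level than all genes, and the part of level in this difference was not tested. GC content was similar, with a median of 63.8% beside 65.3%.

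**Figure D5:**
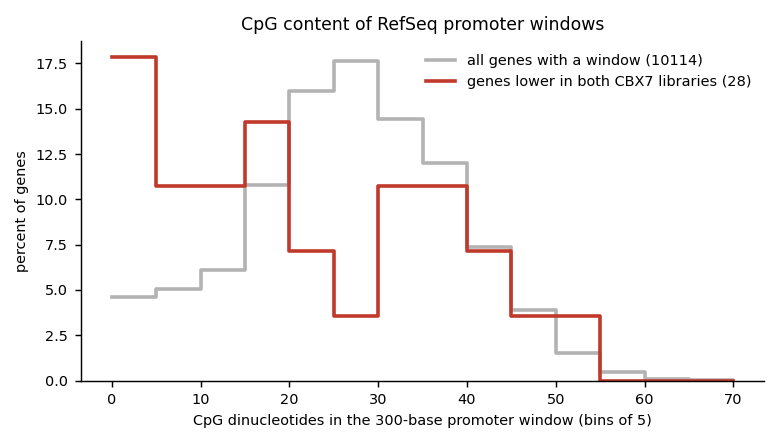
Percent of genes (vertical axis) by the number of CpG dinucleotides in the 300-base RefSeq promoter window (horizontal axis, bins of 5), for the 28 genes of the set with a window (red) and all 10114 genes with one (grey). More of the red genes than of the grey lie under 10 CpG (28.6% beside 9.65%), and fewer in all lie from 20 CpG on (46.4% beside 73.4%).

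Short motifs were searched on both strands of the same windows. TATAAA was present in 3 of 28 (10.7% beside 5.24% of all windows), CCAAT in 13 (46.4% beside 37.0%), GGGCGG in 20 (71.4% beside 71.3%) and CACCTG in 6 (21.4% beside 17.7%). CACGTG was present in 2 (7.14% beside 10.2%), TGANTCA in 2 (7.14% beside 4.36%) and GGAATG in 2 (7.14% beside 10.6%). TGACGTCA (3.30% of all) and the palindromic core of the NRF1 motif (2.43% of all) were each present in 1. These counts are descriptions of letters in a window, and with 28 windows each is known only roughly.

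Over all 14862 genes tested by edgeR's quasi-likelihood test, none was lower in CBX7 cells at an adjusted p under 0.05, and 196 (1.32%) were at an unadjusted p under 0.05, of which 39 belonged to the set. DESeq2's Wald test gave 5 lower genes at an adjusted p under 0.05 (0.0336%), of which FN1, MATN2, SERPINB2 and SERPINE2 belonged to the set. In edgeR, lower genes numbered 47 of 26247 with no filter on low counts (0.179%, 16 in the set), 91 with the replicate number as a block (0.612%, 22 in the set) and 58 with the block and the length and GC correction (0.39%, 16 in the set). Because the rule used the same contrast, these counts describe the set and do not test it. The fitted log2 fold changes of the 43 genes had a median of -0.92 (range -2.04 to -0.65). The smallest p of an exact two-sided permutation test is 0.333 with 2 libraries against 2.

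The limit of 1.5-fold had no natural gap around it. The genes just inside it were ARHGEF37, MYZAP and BBOF1, whose nearest libraries were 1.52, 1.52 and 1.51-fold apart. BBOF1, a basal body protein, had 1.74 and 1.44 CPM in control and 0.958 and 0.774 CPM in CBX7 cells. Just outside were PPM1H, a protein phosphatase, the noncoding RNA BISPR and the scramblase gene PLSCR4, at 1.498, 1.49 and 1.49-fold. PPM1H had 4.11 and 2.98 CPM in control and 1.99 and 1.59 CPM in CBX7 cells.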

How the data were processed

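The 4 T24 libraries, 2 control and 2 CBX7, had 20800910 to 25135488 summed counts. Per gene and library, the authors deposited estimated counts and TPM, with the gene length and their own comparison (ratio, log2 fold change, p-values), which was not used. The submitters' processing notes name cutadapt 1.9.1, HISAT2 2.0.1, HTSeq 0.6.1, DESeq2 and the build hg19. Yet 66.9% to 68.6% of the deposited counts above 0 were whole, so the counter behind these values is not given in the sources used here. Identifiers were matched to GENCODE 29 on GRCh38 (58516 of 60623, 96.5%) for types and coordinates, which may differ from the annotation the authors used.

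From the counts, CPM and the selection rule were computed without rounding. Log2 fold changes and their standard errors come from edgeR 4.0.16 (R 4.3.3) on rounded counts with filterByExpr, TMM and group as the only term, and adjusted p-values are Benjamini-Hochberg values over all genes tested. DESeq2 1.42.0 was an alternative. The length and GC correction removed from each library's log2 CPM (pseudocount 0.5) a spline trend with 4 degrees of freedom for each of the 2 measures. The fits were tested on simulated data. Intervals of counts are exact Poisson intervals at 95% and cover counting error only. Promoter windows are from RefSeq.

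The 43 genes, the gene lists and the motifs were chosen with earlier results of these data known. Named were CBX7, AKR1B10 and, of the 43, the 20 widest gaps, the 10 most abundant, the noncoding genes, the 5 longest and 5 shortest, the 3 nearest the limit on each side and members of lists. Genes beyond these rules, such as neighbours, overlapping genes and MRAS, were named after their values were seen.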

Additional observations from a re-analysis of the deposited data

How the results depend on the processing

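The number of genes meeting the rule was 37 with TMM-scaled CPM and 38 with DESeq2's size factors, of which 36 were shared with the 43 in each case, and 53 after the length and GC correction. It was 68 with the deposited TPM (32 shared), 8 at a fold of 2, 173 at a smaller fold limit, 173 with a summed count of at least 20 and 14 with at least 400. The 8 genes at a fold of 2 had a median length of 1811 bases. Leaving out 1 library gave 93 to 947 genes: 106 without control replicate 1, 93 without control replicate 2, 130 without CBX7 replicate 1 and 947 without CBX7 replicate 2, the last with a median length of 6015 bases.

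Genes lower at an adjusted p under 0.05 numbered 47 with no filter on low counts (16 of the set), 5 with DESeq2's Wald test (4), 91 with the replicate block (22) and 58 with the block and the length and GC correction (16). Without the adjustment they numbered 196 (39). Leaving out 1 library gave 4 to 2653 such genes (1 to 27 of the set), with 7 without control replicate 1, 4 without control replicate 2, 81 without CBX7 replicate 1 and 2653 without CBX7 replicate 2, and assumes that the lone library varies like the others. Normalization by DESeq2's size factors or upper quartiles, a minimum of 10 counts per library, and the length and GC correction gave 0 each. Same-numbered libraries deviated together (correlation 0.46 over 13209 genes), but 2 pairs do not establish a pairing and the labels give none.

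Of 528 values of single genes under these alternatives, none changed sign. The value of AC138969.2 (-1.62) went to -2.02 without control replicate 1 and -1.08 without control replicate 2, and that of GPRC5C (-0.91) to -1.12 with the correction, with or without the block. Values that rest on uneven CBX7 libraries also shifted: STARD4-AS1 (-1.35) went to -0.77 without CBX7 replicate 1 and -2.25 without CBX7 replicate 2, and MAP2K6 (-1.19) to -0.75 and -1.80. Summed with RASA4, the nearest libraries of RASA4B had a ratio of 0.947. Counting error bears on much of the set, since 28 of the 43 genes were under 5 CPM in control cells.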

Other observations

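The correction of each library for gene length and GC content brought in 15 genes that the uncorrected values had kept out. EDNRA, the endothelin receptor type A, had 5.88 and 7.93 CPM in control and 2.47 and 4.01 CPM in CBX7 cells before the correction, and 5.84 and 7.50 against 2.80 and 3.82 CPM after it. BACH2, a transcription factor best known from B cells, had 3.05 and 3.56 CPM in control and 0.995 and 2.14 CPM in CBX7 cells, and 3.03 and 3.12 against 1.38 and 1.87 CPM after it. IGFN1 was the most abundant of the 15, with 109 and 116 CPM in control and 50.01 and 79.6 CPM in CBX7 cells, and 111 and 107 against 60.6 and 70.7 CPM after it. RBP4, which carries retinol, had 6.77 and 6.15 CPM in control and 4.42 and 2.91 CPM in CBX7 cells, and 6.95 and 6.76 against 3.61 and 3.18 CPM after it. The others were CPVL, MARCH1, REPS2, EBF4, BISPR and 6 further genes without a protein-coding annotation. These genes were named after their values were seen.

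CXCL6, a neutrophil-attracting chemokine, stood at 29.2 and 27.2 CPM in control and at 15.8 and 19.0 CPM in CBX7 cells, below the control libraries but not by 1.5-fold between the nearest ones. IL32 and IL11 stood on the other side, IL32 with 1.27 and 1.11 CPM in control and 3.30 and 2.19 CPM in CBX7 cells and IL11 with 8.08 and 9.13 CPM in control and 12.7 and 11.8 CPM in CBX7 cells.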
